A study of Mus musculus with 24 samples.

Results

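The genes described here are 9 that encode the core enzymes of polyamine metabolism and the proteins that regulate ornithine decarboxylase: Amd1, Smox, Odc1, Srm, Sms, Sat1, Oaz1, Oaz2 and Azin1. They were taken by symbol from the 25369 genes listed for each library, whatever their values, and all 9 were among the 14789 genes that passed the low-count filter. RNA was sequenced from the left quadriceps of mice aged 25 weeks. CMD mice carried the Lama2-CMD mutation, which models laminin-deficient congenital muscular dystrophy and whose allele the labels do not name, and WT mice were wild type at that locus. Both genotypes were sampled on C57BL/6J (B6), on DBA/2J (D2) and on the strains labelled CMD-67 and CMD-87, which the study design lists as BXD-67 and BXD-87 and which are called 67 and 87 here. BXD lines were bred from crosses of those founder strains. The 8 groups of strain and genotype held 3 libraries each. Libraries 1 to 6 were B6, 7 to 12 were 67, 13 to 18 were 87 and 19 to 24 were D2, with the 3 WT libraries first in each strain, and the labels name no treatment. The labels do not say whether littermates were used.

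Polyamines are small positively charged molecules that bind RNA and DNA and that growing cells need. Ornithine decarboxylase (Odc1) makes putrescine from ornithine, and S-adenosylmethionine decarboxylase (Amd1) supplies the aminopropyl groups that spermidine synthase (Srm) and spermine synthase (Sms) add to it. Spermine oxidase (Smox) turns spermine back into spermidine, and spermidine/spermine acetyltransferase (Sat1) marks both for breakdown or export. Antizymes (Oaz1, Oaz2) send ornithine decarboxylase to the proteasome, and antizyme inhibitor (Azin1) holds the antizymes off. In muscle, polyamine genes are known to respond to androgens, and Smox and Amd1 to conditions that cause wasting or growth.

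Total exon reads ran from 32292613 to 51715975 per library. Sex was read from 4 Y-linked genes, since these matched the sex label in 20 libraries and went against it in 4. D2 WT libraries 19 and 21, labelled male, held 1 and 0 Y-linked reads, and D2 CMD libraries 22 and 24, labelled female, held 4927 and 4858. By these reads 9 mice were male: libraries 1 (B6 WT), 4 and 6 (B6 CMD), 7 (67 WT), 13 (87 WT), 17 and 18 (87 CMD), and 22 and 24 (D2 CMD). The other 15, which include every 67 CMD and D2 WT library, were female, so in D2 the groups differ in sex as well as genotype. Whether other labels of these 4 libraries, the genotype included, are also wrong cannot be settled from the labels, and D2 values carry that doubt. The summed regenerating-fibre markers ran as the D2 genotype labels say (38.0 to 43.6 CPM in WT and 75.1 to 436 CPM in CMD). Every fit below holds a term for sex by these reads unless stated. Lama2 itself fell in B6 (log2 fold change -1.13 ± 0.21, adjusted p = 0.00189) and 87 (-0.996 ± 0.21, adjusted p = 0.00225), and passed no test in 67 (0.14 ± 0.21) or D2 (-0.58 ± 0.22), so its level alone did not tell CMD from WT there. Library 16, the only female 87 CMD library, stood apart with 3815 CPM of the atrophy gene Trim63 and 1179.7 CPM of the metallothionein gene Mt1, where libraries 17 and 18 held 215 and 289.8 CPM of Trim63 and 20.1 and 27.3 CPM of Mt1. For the 9 genes, changes between groups that rest on library 16, or on 23, the only female D2 CMD library, are given with and without it. Changes of the pathway and marker genes below are given with both libraries in only.

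CPM are counts scaled to a common library size after TMM normalisation, and TPM, as deposited, divides also by exon length so that genes can be compared with each other. In B6 WT muscle the mean TPM level was highest for Oaz1 (595 ± 76.5, SD, n = 3) and Amd1 (575 ± 617), followed by Oaz2 (170.0 ± 19.1), Smox (120 ± 118), Sms (99.4 ± 28.3) and Odc1 (87.8 ± 58.9), and lowest for Sat1 (20.8 ± 2.2), Azin1 (12.96 ± 0.99) and Srm (10.01 ± 0.85). Neighbours from Smox to Odc1 did not differ beyond their SD. For Amd1, Smox and Odc1 the SD was large beside the mean, and the male library was the highest of the 3.

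**Figure D1:**
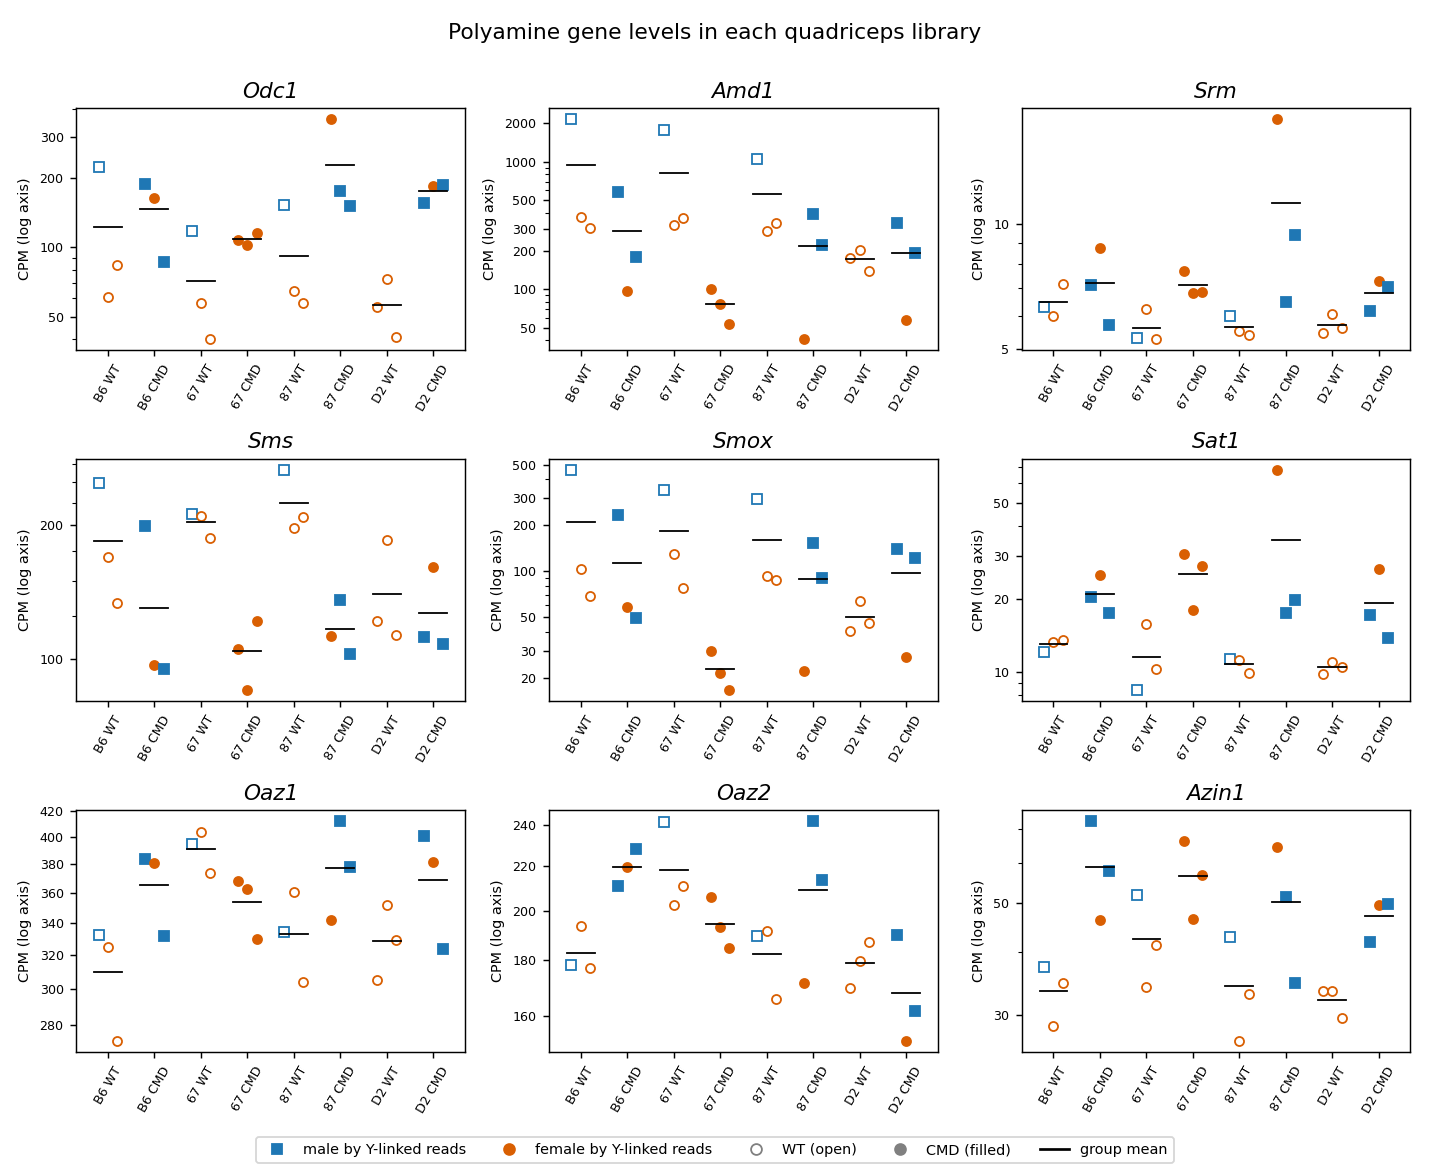
CPM (log axis) of each of the 9 polyamine genes in each of the 24 libraries, by group, with a bar at the group mean. Squares are male and circles female by Y-linked reads, and open symbols are WT and filled symbols CMD. Amd1 ranged from 41.2 to 2150.3 CPM, while Oaz1 stayed between 272 and 412 CPM.

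In CMD muscle, genes of the pathway changed in opposite directions. Amd1 fell and Sat1 rose in all 4 strains. Smox and Sms fell in 67 and 87, Odc1 and Srm rose in 87, and Azin1 rose in B6. Without library 16 Odc1 and Smox no longer passed in 87 (0.44, adjusted p = 0.525, and -1.39, adjusted p = 0.0627). In D2, 0 of the 9 genes passed without libraries 16 and 23 together. The D2 change of Amd1 was 0.998 with sex as labelled and 0.16 with no sex term. The Sat1 call in B6 held in 21 of 34 alternatives. The test was edgeR's quasi-likelihood test, with Benjamini-Hochberg adjustment over all genes tested and a threshold of 0.05. Of the 9 genes, 3 passed in B6 (2 higher and 1 lower in CMD), where 20.1% of all genes tested passed. In 67, 4 passed (1 higher, 3 lower), against 22.8% of all genes. In 87, 6 passed (3 higher, 3 lower), against 24.9%, and in D2, 2 passed (1 higher, 1 lower), against 16.8%. The median log2 fold change of the 9 was 0.23 in B6, -0.11 in 67, 0.17 in 87 and 0.14 in D2, beside 0.02, 0.00021, -0.0011 and 0.04 over all genes. In this fit members passed in both directions in every strain. Without library 2, 0 members passed as higher in B6, and without library 9 or 10, 0 did in 67. In bulk tissue, fewer cells of a type and less RNA per cell cannot be told apart.

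**Figure D2:**
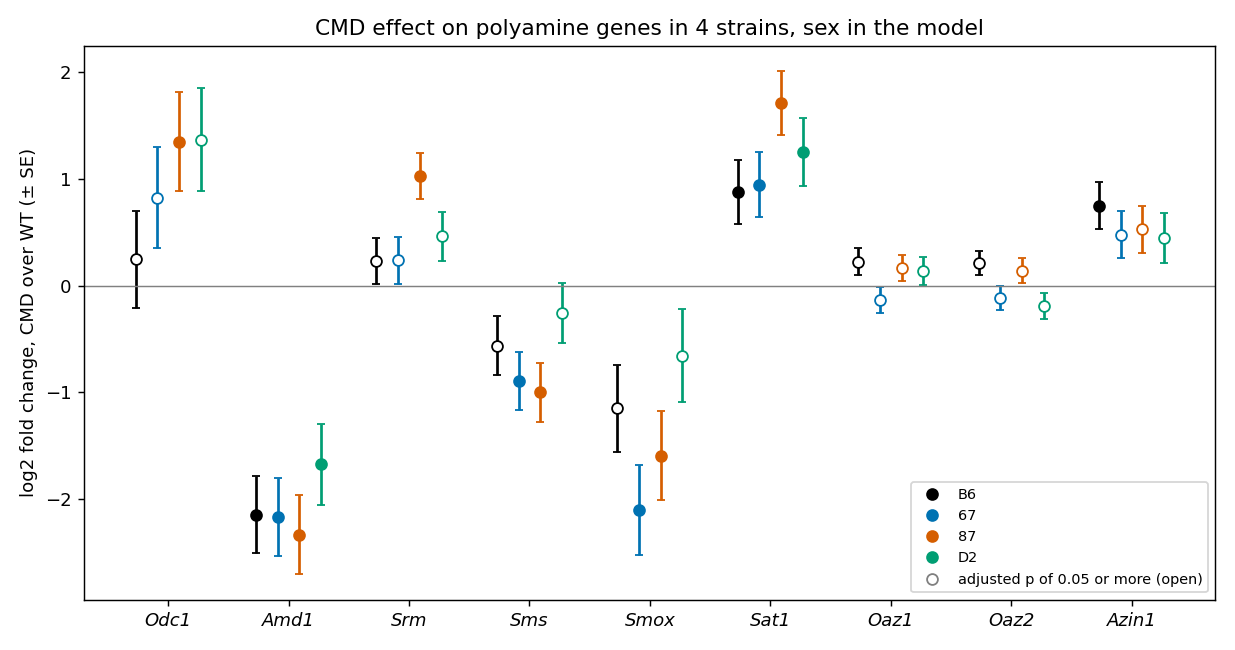
Log2 fold change, CMD over WT, of the 9 genes in the 4 strains, with bars of ± 1 SE from the edgeR fit; filled points passed an adjusted p of 0.05. Amd1 lies below 0 in every strain (-2.33 to -1.67) and Sat1 above it (0.88 to 1.71).

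Over all 24 libraries, library 16 included, Amd1 and Smox varied together and Sat1 moved against them. The upstream sequences of Amd1, Smox and Sat1 are shown for that reason. They are the 250 bases before the annotated start, 5′ to 3′ on the gene's strand, from RefSeq (GRCm38.p6), which held 7 of the 9 genes: Amd1 on the minus strand of chromosome 10 (40302189 to 40302438), Smox on the plus strand of chromosome 2 (131491612 to 131491861), and Sat1 on the minus strand of the X chromosome (155216450 to 155216699). Capitals mark GC boxes (GGGCGG or CCGCCC), androgen-receptor half-sites (AGAACA or TGTTCT) and E-boxes (CACGTG).
Amd1: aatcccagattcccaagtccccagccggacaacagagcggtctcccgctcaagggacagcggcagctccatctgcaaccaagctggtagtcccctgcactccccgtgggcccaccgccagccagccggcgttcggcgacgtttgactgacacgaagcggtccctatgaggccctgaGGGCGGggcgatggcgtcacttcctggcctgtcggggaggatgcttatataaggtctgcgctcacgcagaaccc
Smox: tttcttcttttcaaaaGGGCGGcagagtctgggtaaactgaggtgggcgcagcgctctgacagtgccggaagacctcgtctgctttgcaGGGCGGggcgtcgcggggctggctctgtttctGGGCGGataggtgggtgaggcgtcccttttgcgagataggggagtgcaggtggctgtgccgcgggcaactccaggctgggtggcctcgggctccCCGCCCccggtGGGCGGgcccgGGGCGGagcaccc
Sat1: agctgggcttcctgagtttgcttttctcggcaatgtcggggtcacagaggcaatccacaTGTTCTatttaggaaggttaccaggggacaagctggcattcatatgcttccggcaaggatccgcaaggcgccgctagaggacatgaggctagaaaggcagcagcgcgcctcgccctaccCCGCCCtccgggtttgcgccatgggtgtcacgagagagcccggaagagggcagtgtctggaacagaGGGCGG
Amd1 held 1 GC box, Smox 6 and Sat1 2; 32.7% of 32851 RefSeq windows of this length held at least 1. The androgen-receptor half-site occurred in Sat1 (191 bases before the start) and not in the windows of Amd1 or Smox; 16.1% of all windows held it. None of the 3 held the E-box (6.02% of windows) or an AP-1 site TGACTCA (4.46%, both strands), and Amd1 held 1 of the short sequence TGACG (17.8%, both strands). These matches describe letters in the window and say nothing of what binds there.

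Amd1, whose product makes the aminopropyl donor for spermidine and spermine, had the lowest fold changes of the 9 in every strain. In B6 WT it stood at 2150.3 CPM in the male and 369 and 304 CPM in the females; in B6 CMD it stood at 583 and 180.3 CPM in the males and 96.5 CPM in the female. The groups overlapped across sexes and not within a sex. The change was -2.14 ± 0.36 (log2, SE; 4.42-fold lower, adjusted p = 0.000936). In 67, WT held 1759.8 CPM (male), 321 and 364 CPM, and the 3 CMD females held 101, 76.97 and 53.2 CPM, with no overlap at all (-2.17 ± 0.37, 4.49-fold lower, adjusted p = 0.00063). In 87, WT held 1047 CPM (male), 287 and 330 CPM, and CMD held 41.2 CPM in the female library 16 and 388 and 222 CPM in the males (-2.33 ± 0.37, 5.04-fold lower, adjusted p = 0.000339). Without library 16 the 87 change was -2.09 (adjusted p = 0.0036). In each of the 6 sets of same-strain, same-sex libraries that held both genotypes, every CMD library was below every WT library.

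In D2 the Amd1 result depended on how sex entered the fit. The 3 WT females held 177, 203 and 140 CPM, the CMD female (library 23) 57.3 CPM, and the CMD males 329 and 194 CPM, so the groups overlapped. With sex from Y-linked reads the change was -1.67 ± 0.38 (3.19-fold lower, adjusted p = 0.00761). With no sex term it was 0.16 (adjusted p = 0.915), and with sex as labelled 0.998 (adjusted p = 0.235). Among females alone it was -1.60 (adjusted p = 0.00799), with library 23 as the single CMD library and assumed to vary like the libraries of the other groups. The change was -1.61 (adjusted p = 0.0518) without libraries 16 and 23 together. Without library 23 it was -1.77 (adjusted p = 0.0392), a value that compares CMD males with WT females through the sex term. The no-sex fit also ended the Amd1 call in B6 (-1.72, adjusted p = 0.192) and 87 (-1.35, adjusted p = 0.307), and not in 67. D2 fitted alone gave -1.56 (adjusted p = 0.0632).

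Reads of Amd1 can be shared with its near-identical copy Amd2: 2643 of the 3147 windows of 58 bases in its longest coding transcript (84.0%) occur in Amd2 as well, and 29.7% to 34.1% of its exon reads per library were unique. The other 8 genes shared no such window. With unique reads alone the Amd1 changes were -2.11, -2.12, -2.30 and -1.66 in B6, 67, 87 and D2, and with the reads of both genes summed they were -2.15, -2.18, -2.34 and -1.68 in B6, 67, 87 and D2. All of them passed the test. Amd2 as counted fell in all 4 strains too: -2.71 ± 0.48, -2.59 ± 0.49, -2.59 ± 0.49 and -1.77 ± 0.48 in B6, 67, 87 and D2 (adjusted p = 0.0013, 0.00136, 0.00109 and 0.019).

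Smox, the oxidase that returns spermine to spermidine, fell in 67 and 87 and did not pass in B6 or D2; the difference between strains did not pass (adjusted p = 0.33). In B6 the WT libraries held 458 CPM (male), 103 and 68.5 CPM, and the CMD libraries 233 and 49.8 CPM (males) and 58.2 CPM (female). The change there was -1.15 ± 0.41 and missed the threshold (adjusted p = 0.0517), though it passed by DESeq2 (-1.13, adjusted p = 0.0257) and without library 4 (-1.47, adjusted p = 0.0386) or 16 (-1.12, adjusted p = 0.047). In 67 Smox fell from 339, 130.5 and 78.1 CPM to 30.2, 21.7 and 16.8 CPM without overlap (-2.10 ± 0.42, 4.30-fold lower, adjusted p = 0.00204). In 87 it fell from 298, 92.8 and 87.6 CPM to 154 and 90.5 CPM in males and 22.3 CPM in library 16 (-1.59 ± 0.42, 3.01-fold lower, adjusted p = 0.0101). Without library 16 the 87 change was -1.39 (adjusted p = 0.0627), and without 16 and 23 it was -1.31 (adjusted p = 0.0909). With labelled sex it was -1.38 (adjusted p = 0.124), and with no sex term -0.84 (adjusted p = 0.498). In D2 the WT females held 40.6, 63.6 and 45.8 CPM, the CMD males 141 and 123 CPM, and the CMD female 27.6 CPM (-0.66 ± 0.44, adjusted p = 0.311). Over 34 alternatives the D2 change ran from -0.86 to 1.62, so its direction depended on the setting.

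In 87 the synthases that build spermidine and spermine moved in opposite directions. Sms fell in 67, from 212, 210.2 and 188 CPM to 106, 85.5 and 122 CPM (-0.89 ± 0.27, 1.85-fold lower, adjusted p = 0.0258), and in 87, from 266, 198 and 209 CPM to 113, 136 and 103 CPM (-0.9999 ± 0.27, 2.00-fold lower, adjusted p = 0.0124). In both strains every CMD library lay below every WT library. In 67 the Sms call ended without library 8, 9, 10 or 11 (-0.93 to -0.77, adjusted p = 0.0582 to 0.0988), and in 87 without library 13 (-0.92, adjusted p = 0.0533). In B6 Sms was 249, 170.05 and 134 CPM in WT and 199.9, 96.9 and 95.2 CPM in CMD, which overlapped (-0.56 ± 0.27, adjusted p = 0.154); without library 4, the highest of the CMD libraries, it was -0.93 (adjusted p = 0.0253). In D2 it was -0.26 ± 0.28 (adjusted p = 0.551). Srm, the spermidine synthase gene, rose in 87 (1.03 ± 0.22, 2.04-fold, adjusted p = 0.00221). The 87 WT libraries held 6.0, 5.5 and 5.4 CPM of Srm, the CMD males 6.5 and 9.4 CPM, and library 16 held 17.8 CPM. Without library 16 the Srm change was 0.58 (adjusted p = 0.0413), and with 87 fitted alone it was 1.065 (adjusted p = 0.103). In B6, 67 and D2 it was 0.23, 0.24 and 0.46, with adjusted p of 0.481, 0.463 and 0.173.

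Odc1, the entry enzyme of the pathway, was higher in WT males than in WT females, and in CMD the sexes overlapped. In females it was higher in CMD than in WT in every strain: 163 CPM against 60.8 and 83.3 CPM in B6, 108, 102 and 115 CPM against 57.1 and 40.2 CPM in 67, 359 CPM against 64.9 and 57.4 CPM in 87, and 185 CPM against 55.2, 72.4 and 40.7 CPM in D2. In males it was not: B6 CMD males held 189 and 86.3 CPM against 223 CPM in the WT male, and 87 CMD males held 175 and 151 CPM against 152 CPM. With 1 common sex term Odc1 rose in 87 (1.35 ± 0.46, 2.55-fold, adjusted p = 0.038) and not past the threshold in D2 (1.37 ± 0.48, adjusted p = 0.0581), 67 (0.83 ± 0.47, adjusted p = 0.219) or B6 (0.25 ± 0.45, adjusted p = 0.744). The 87 value rested on library 16: without it the change was 0.44 (adjusted p = 0.525). It was also not called without library 14 (1.25, adjusted p = 0.119) or 15 (1.18, adjusted p = 0.144), or when 87 was fitted alone (1.33, adjusted p = 0.151). Among females alone the B6 change was 1.18 (adjusted p = 0.0227), the 67 change 1.15 (adjusted p = 0.00556), the 87 change 2.55 (adjusted p = 0.000122) and the D2 change 1.71 (adjusted p = 0.00199). B6, 87 and D2 have a single CMD female each, in 87 library 16, so the spread of those arms is taken from the other groups. In the fit of all libraries the D2 change passed without library 1, 2, 7, 13, 16 or 22 (1.17 to 1.496, adjusted p = 0.0308 to 0.0497) and by DESeq2 (1.39, adjusted p = 0.0247), and it was 0.63 (adjusted p = 0.408) without 16 and 23. The D2 change also passed with sex as labelled (1.85, adjusted p = 0.012) and with no sex term (1.65, adjusted p = 0.0237). With D2 fitted alone it was 1.76 (adjusted p = 0.0371), and with a separate sex term in each genotype 2.01 (adjusted p = 0.000427). It passed in 12 of 34 alternatives. In 67 the change passed without 16 and 23 (1.05, adjusted p = 0.0333).

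Sat1, the acetyltransferase that starts polyamine breakdown and export, was higher in every CMD library than in any WT library of its strain. That held in all 4 strains, and for Srm in 67, 87 and D2, of which Srm passed the test in 87 only. Azin1 in B6 and D2, Oaz2 in B6 and Odc1 in D2 separated likewise, and of these Azin1 in B6 alone passed. In 67 every CMD library lay below every WT library in Oaz1, which did not pass. How many of all genes separate in this way was not counted, so separation alone does not set Sat1 or Srm apart. WT levels were 8.5 to 15.8 CPM. B6 CMD held 20.3, 25.0 and 17.6 CPM (0.88 ± 0.30, 1.84-fold, adjusted p = 0.0459), and 67 CMD held 30.6, 17.97 and 27.2 CPM (0.95 ± 0.30, 1.93-fold, adjusted p = 0.0302). In 87 CMD it was 67.9 CPM in library 16 and 17.6 and 19.8 CPM in the males (1.71 ± 0.30, 3.28-fold, adjusted p = 0.000629). D2 CMD held 26.6 CPM in the female and 17.2 and 13.8 CPM in the males (1.26 ± 0.32, 2.39-fold, adjusted p = 0.0138). Without library 16 the 87 change was 1.03 (adjusted p = 0.00673). With 87 fitted alone it was 1.72 (adjusted p = 0.0632). The B6 call ended without any one of libraries 2, 3, 4, 5, 6, 7, 12, 19, 21 or 22 (0.81 to 1.01, adjusted p = 0.0504 to 0.133). It also ended with sex as labelled (0.85, adjusted p = 0.081), with no sex term (0.69, adjusted p = 0.207) and among females (0.90, adjusted p = 0.0505). The 67 call ended without library 7, 9, 10 or 12 (0.77 to 0.94, adjusted p = 0.0686 to 0.147). The D2 call ended without library 23 (1.15, adjusted p = 0.0906), with sex as labelled (0.51, adjusted p = 0.296) and with no sex term (0.88, adjusted p = 0.101).

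Of the regulators of ornithine decarboxylase, neither antizyme passed in any strain and Azin1 passed in B6. Oaz1 lay between 272 and 412 CPM and Oaz2 between 152 and 242 CPM in all 24 libraries. Their log2 fold changes ran from -0.13 to 0.23 for Oaz1 and from -0.19 to 0.21 for Oaz2, with adjusted p of at least 0.199; the 95% intervals reached no further than -0.39 and 0.48 for Oaz1 and -0.45 and 0.46 for Oaz2. Azin1 rose in B6, from 37.4, 28.6 and 34.6 CPM to 72.6, 46.2 and 57.8 CPM (0.75 ± 0.22, 1.68-fold, adjusted p = 0.0248). That call ended without library 2 (0.69, adjusted p = 0.0829) or 4 (0.63, adjusted p = 0.0782). In 67, 87 and D2 the Azin1 change was 0.48 ± 0.22, 0.53 ± 0.22 and 0.45 ± 0.23 (adjusted p = 0.129, 0.0832 and 0.187). In 67 it passed without library 16 (0.52, adjusted p = 0.0339), and in 87 without library 18 (0.76, adjusted p = 0.0123), while without library 16 the 87 value was 0.14 (adjusted p = 0.699).

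No difference between strains in the CMD effect passed the test for any of the 9 genes (edgeR, F test of the interaction), where 5.16% of all genes passed; 0 of the 9 had an unadjusted p under 0.05 and DESeq2 called 0. Adjusted p ran from 0.214 (Srm) to 0.838 (Azin1). The 95% intervals were wide, for example -2.90 to -1.39 for Amd1 in B6 and -2.47 to -0.88 in D2, so effects that differ by less than these widths could not be told apart. Without library 17 the Srm difference passed (adjusted p = 0.0391), and with sex as labelled those of Amd1 (adjusted p = 0.0411) and Smox (adjusted p = 0.0339) did. Among females alone those of Srm (adjusted p = 0.00889) and Sat1 (adjusted p = 0.0186) passed, but there B6, 87 and D2 have 1 CMD library each, whose spread is taken from the other groups, and the 87 library is 16, the highest of all in both genes.

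WT levels of the 9 genes did not differ among strains past the threshold (edgeR, F test; 8.85% of all genes passed), with 1 unadjusted p under 0.05 (Amd1) and 0 calls by DESeq2. Amd1 passed this test among females (adjusted p = 0.0395) and with WT libraries alone (adjusted p = 0.0168). For D2 against B6, where 7.63% of all genes passed, 0 of the 9 were called and 2 had an unadjusted p under 0.05. These were Amd1 (-1.09 ± 0.36, adjusted p = 0.0714) and Smox (-0.95 ± 0.41, adjusted p = 0.192). All 3 D2 WT females held less Amd1 (140 to 203 CPM) than any of the 6 WT females of the other strains (287 to 369 CPM). The Amd1 difference passed by DESeq2 (-1.11, adjusted p = 0.0205), among females (-0.96, adjusted p = 0.03) and with WT libraries alone (-1.10, adjusted p = 0.00637), and also without library 4, 6, 16 or 17 (-1.14 to -1.05, adjusted p = 0.0271 to 0.0471). With WT libraries alone Smox passed as well (-0.94, adjusted p = 0.0361).

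Amd1 and Smox differed between the sexes by folds like those between genotypes. Over all groups, 2 of the 9 genes passed the test of males against females, where 1.22% of all genes did: Amd1 was 4.96-fold higher in males (2.31 ± 0.22, adjusted p = 5.4e-06) and Smox 3.89-fold (1.96 ± 0.25, adjusted p = 0.000224). Both calls held with any one library left out. With sex as labelled Smox did not pass (1.47, adjusted p = 0.0687). In WT, the 3 males held 1047 to 2150.3 CPM of Amd1 and the 9 females 140 to 369 CPM (median 304). In CMD, the 6 males held 180.3 to 583 CPM (median 276) and the 6 females 41.2 to 101 CPM (median 67.1). Males and females did not overlap within either genotype, and CMD males lay in the range of WT females or above it. Smox likewise stood at 298 to 458 CPM in WT males and 40.6 to 130.5 CPM in WT females; in CMD it stood at 49.8 to 233 CPM in males and 16.8 to 58.2 CPM in females, where B6 CMD male 6 (49.8 CPM) lay below B6 CMD female 5. Sat1 was lower in males (-0.64 ± 0.18, adjusted p = 0.0831) and passed by DESeq2 alone (-0.65, adjusted p = 0.0226).

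Sex was then given a separate term in each genotype, a fit added after the data had been seen. In WT, 3 of the 9 genes were higher in males (1.06% of all genes passed): Amd1 (2.28 ± 0.30), Smox (1.96 ± 0.34) and Odc1 (1.41 ± 0.22, 2.66-fold, adjusted p = 0.00295). In CMD, 3 of the 9 passed (0.615% of all genes): Amd1 (2.34 ± 0.35, adjusted p = 0.00469) and Smox (1.97 ± 0.39, adjusted p = 0.035) were higher and Sat1 (-1.06 ± 0.22, 2.08-fold, adjusted p = 0.0361) was lower in males. Without library 16 none of the 3 CMD values passed (Amd1 2.07, adjusted p = 0.0865; Smox 1.72, adjusted p = 0.335; Sat1 -0.61, adjusted p = 0.434). Over 25 fits with libraries left out, the CMD value passed in 23 for Amd1, 13 for Smox and 14 for Sat1. Without WT male 1 the WT values of Smox (1.70, adjusted p = 0.185) and Odc1 (1.28, adjusted p = 0.116) did not pass. The difference between these sex effects passed for Odc1 alone of the 9, among 0.0406% of all genes; the value and its limits stand in the closing section. For Amd1 it was 0.05 (95% interval -0.86 to 0.97) and for Smox 0.007 (interval -1.04 to 1.06).

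**Figure D3:**
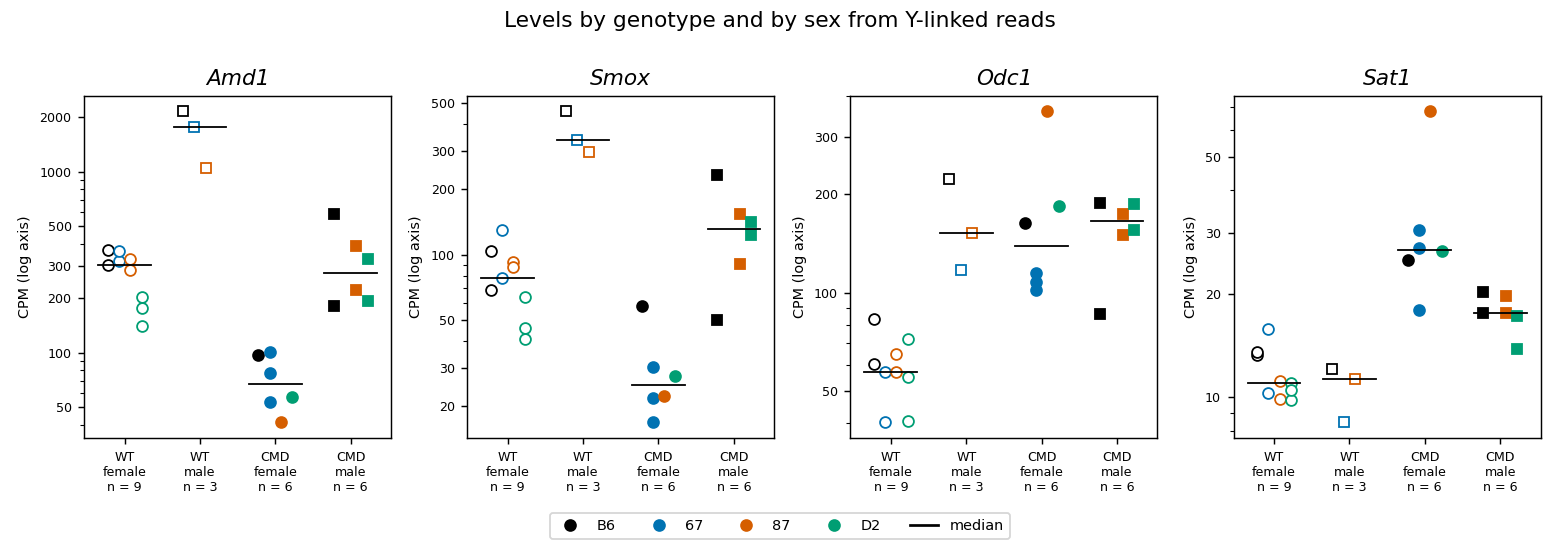
CPM (log axis) of Amd1, Smox, Odc1 and Sat1 by genotype and by sex from Y-linked reads, coloured by strain, with a bar at the median. Amd1 medians were 304 (WT females), 1759.8 (WT males), 67.1 (CMD females) and 276 CPM (CMD males), while Odc1 medians were 57.4, 152, 139 and 165 CPM in the same order.

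The genes whose libraries deviated from their group means most like each member were found by Pearson r of log2 CPM over the 24 libraries, which share depth, sex and library 16, so r is a description. Those nearest Amd1 were Amd2 (r = 0.96), Smox (r = 0.96) and the Y-linked Eif2s3y (r = 0.93). Those nearest Smox were Amd1, Il12a (r = 0.92) and Amd2 (r = 0.89). For Odc1 they were Sra1 (0.90), Anxa7 (0.88) and Sub1 (0.85), and for Sat1 D8Ertd738e (0.91), Saysd1 (0.91) and Acot9 (0.90). Without libraries 16 and 23, over 22 libraries, these neighbours changed for all 4 genes. Those of Amd1 became Amd2, Cdk19 and Polk, while its r with Smox was 0.94. Those of Smox became Amd1, Ppm1n and Il12a, those of Odc1 Sra1, Fbxo17 and Sub1, and those of Sat1 Pnma8a, Lrrc4b and Dok6. Among the members, Sat1 and Srm had r = 0.84, and Amd1 and Sat1 had r = -0.63. Library 16 was the highest of the 24 in Sat1 (67.9 CPM) and Srm (17.8 CPM) and the lowest in Amd1 (41.2 CPM). The r values of these pairs were not computed without library 16.

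Other genes that feed, use or carry polyamines were read as 5 lists of 34 genes, of which 28 were tested. In B6, 5 passed, all lower in CMD; in 67, 8 passed (1 higher, 7 lower); in 87, 7 passed (1 higher, 6 lower); and in D2, 11 passed (5 higher, 6 lower). The background shares are those given above for all genes. One list held the genes for making S-adenosylmethionine (SAM), from which the decarboxylase draws its substrate, and for recovering the methylthioadenosine that the synthases release. Of its 8 tested genes 2 were lower in B6, and 4 in each of 67, 87 and D2. Mtap, the phosphorylase that splits methylthioadenosine, fell by 0.80, 1.08, 0.86 and 0.65 on the log2 scale in B6, 67, 87 and D2 (adjusted p = 0.00246, 0.000248, 0.000972 and 0.0156). In B6 it went from 20.1, 20.3 and 20.99 CPM to 10.2 to 13.7 CPM. Adi1, the dioxygenase near the end of that salvage route, fell by 1.03, 0.99, 0.82 and 0.61 (adjusted p = 0.000917, 0.000798, 0.00252 and 0.0289). Of the 28 tested genes, 1 passed the F test for a difference among strains in the CMD effect, which 5.16% of all genes passed. That count does not stand out from the share of all genes. The gene was Mat2b, the regulatory subunit of the SAM-making enzyme (adjusted p = 0.0368). Within D2 it was lower in CMD (-0.39 ± 0.13, adjusted p = 0.0438).

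In the arginine and ornithine list, Ass1, which makes the precursor of arginine, rose in 67 (1.97 ± 0.47, adjusted p = 0.00662) and D2 (2.31 ± 0.47, adjusted p = 0.0035). Gatm, the first enzyme of creatine synthesis, rose in D2 (1.71 ± 0.46, adjusted p = 0.0185). Oat, which links ornithine to glutamate, fell in B6 (-0.63 ± 0.18, adjusted p = 0.0207) and D2 (-0.59 ± 0.19, adjusted p = 0.0432). Of the transport list, Atp13a2, a lysosomal polyamine exporter, fell in B6 (-0.87 ± 0.21), 67 (-0.59 ± 0.21) and 87 (-1.35 ± 0.21; adjusted p = 0.00758, 0.0445 and 0.000299), and its relative Atp13a3 rose in D2 (1.48 ± 0.31, adjusted p = 0.00483) as did Gpc1 (0.54 ± 0.16, adjusted p = 0.0287). Of the hypusine genes, which use spermidine to modify the translation factor eIF5A, Eif5a fell in 67 (-0.40 ± 0.13, adjusted p = 0.0296). Agmat, which encodes agmatinase, passed in 87 and D2 on few reads. Its 3 WT libraries of 87 held 2 reads in all and the CMD libraries 38 (a ratio of 19.6 after library size, 95% interval 5.06 to 168, counting error only), and in D2 these were 8 and 58 (7.06, 3.36 to 17.1).

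**Figure D4:**
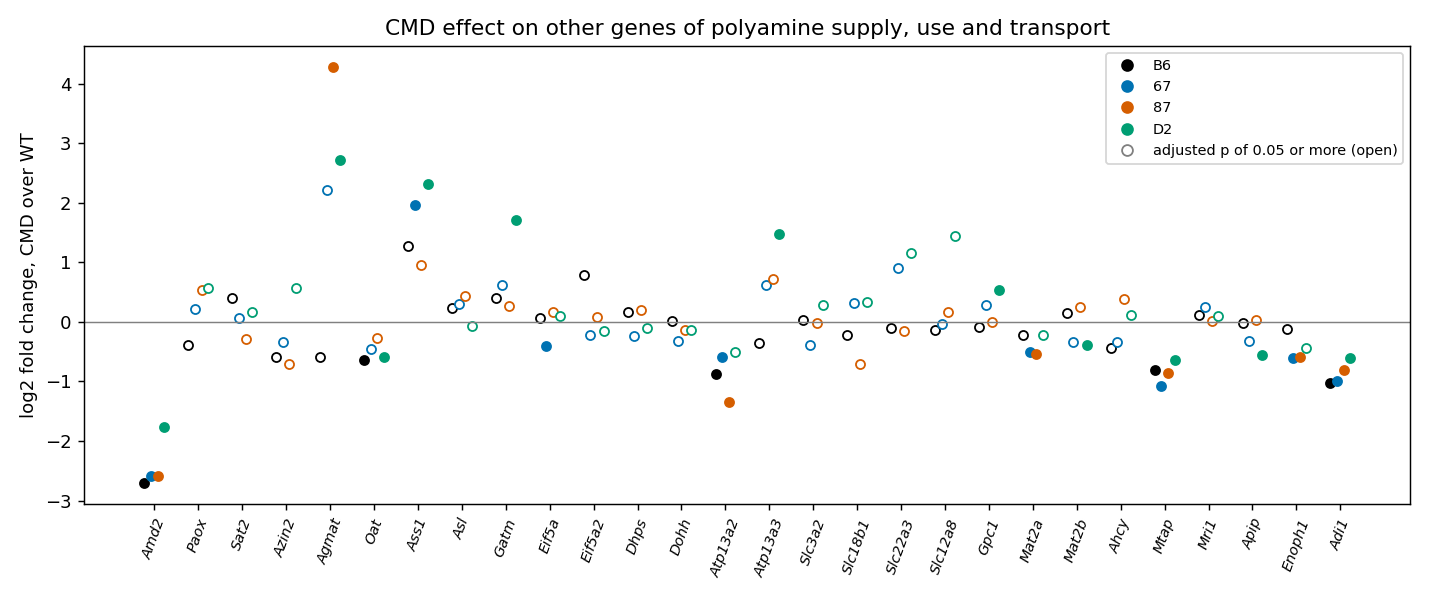
Log2 fold change, CMD over WT, of the 28 tested genes of the 5 lists in each strain; filled points passed an adjusted p of 0.05. Amd2, Mtap and Adi1 are filled below 0 in all 4 strains, and the highest point, Agmat in 87, rests on 2 WT reads.

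Markers of muscle fibres and of regeneration moved with genotype in every strain, and those of other cell types in some strains or none. The background shares are those given above for all genes. The 6 muscle fibre markers, present in every library as the tissue label says, summed to 132140 to 189090 CPM in WT and 73329 to 133550 CPM in CMD. Of them 3 were lower in B6, 3 in 67, 2 in 87 and 2 in D2, with Ckm and Myh4 lower in all 4 strains, and 1 (Mb) was higher in B6, 67 and 87. In 67 their sum was 175840 to 189090 CPM in WT and 83660 to 88763 CPM in CMD. The 5 regenerating-fibre markers passed in all 4 strains, all higher in CMD (summed 7.89 to 43.6 CPM in WT libraries and 58.3 to 436 CPM in CMD libraries). Of 8 macrophage markers 3 were higher in B6, 7 in 67, 1 in 87 (and 1 lower) and 3 in D2 (40.8 to 131 CPM in WT, 58.9 to 254 CPM in CMD, none at 0 in any library). Of 6 fibroblast markers 4 were higher in 67 and 2 lower in 87, and 0 passed in B6 or D2. In 87 CMD their sum was 137 CPM in library 16 and 433 and 646 CPM in libraries 17 and 18. Of 5 red blood cell markers 0 passed in any strain. Of 4 adipocyte markers 1 passed, in D2, where it was higher. Of 4 endothelial markers 1 was higher in B6 and 1 lower in D2. Of 3 tested T cell markers 2 were higher in B6 and 2 in 67, and 0 passed in 87 or D2. In D2 CMD, macrophage markers summed to 254 and 233 CPM in males 22 and 24 and 85.5 CPM in female 23. Of the 4 atrophy and stress genes, the metallothionein genes Mt1 and Mt2 were higher in CMD in B6 and 67 (6.96- and 18.4-fold, 7.58- and 21.3-fold) and Mt2 in D2 (14.65-fold). All 4 were higher in 87 CMD, where they summed to 9031 CPM in library 16 and 622 and 716 CPM in libraries 17 and 18. In 87 WT they summed to 473 to 683 CPM. The atrophy gene Fbxo32 held 3035.5 CPM in library 16. In libraries 17 and 18 it held 371 and 380 CPM, within the 292 to 472 CPM of 87 WT. Trim63 held 215 and 289.8 CPM in these 2 libraries, beside 174 to 202 CPM in 87 WT. The part of all these markers in the changes of the polyamine genes was not tested.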

How the data were processed

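Total RNA from snap-frozen left quadriceps was extracted with TRIzol, made into stranded mRNA libraries and sequenced as paired reads of 58 bases, per the labels' protocols. The genome build was GRCm39, per the submitters' processing notes. No source used here names an aligner or a counting tool. The authors deposited counts of total exon reads and of unique exon reads per gene, RPKM values and TPM values. The deposited TPM values, which the authors scaled by exon length, were used here for levels between genes only, and the deposited RPKM values of the authors were not used. Between 97.7% and 98.2% of exon reads per library were unique.

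Total exon reads of 25369 genes were filtered by group with filterByExpr, scaled by TMM and passed to glmQLFit of edgeR 4.0.16 under R 4.3.3. The filter asked for the CPM of 10 reads at the median library size in at least 3 libraries, and for 15 reads in all. The fit had a mean for each of the 8 groups and a sex term (male above 5 CPM summed over Ddx3y, Eif2s3y, Kdm5d and Uty), over all 24 libraries, which share 1 estimate of spread. Contrasts were tested with glmQLFTest and adjusted by Benjamini-Hochberg over 14789 genes, with a threshold of 0.05. SE and 95% intervals come from the F statistic. P-values weigh each change against the spread between libraries, estimated over all groups. A group with 1 library, as among females alone, adds nothing to that estimate. DESeq2 1.42.0 was an alternative, as were sex as labelled, no sex term, females only, the libraries compared alone, RLE scaling, no filter, unique reads, libraries 16 and 23 left out, and each library left out. Separate sex terms per genotype and the sum of Amd1 and Amd2 reads were added after the data were seen. The steps were tested on simulated data. Named genes were the 9 members, Lama2, Amd2, the 2 listed genes per pathway list and strain with the largest change past the threshold, and the 3 genes most like Amd1, Smox, Odc1 and Sat1; Gm, digit-led and Rik symbols were left out of the last. Mat2b, Trim63, Fbxo32 and Mt1 were named after their values were seen. The members, lists and sex term were chosen with earlier results of these data known.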

Additional observations from a re-analysis of the deposited data

Results flagged for a closer look

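The sex difference in Odc1 was not the same in the 2 genotypes. In WT the 3 males held 118 to 223 CPM and the 9 females 40.2 to 83.3 CPM, without overlap. In CMD the 6 males held 86.3 to 189 CPM and the 6 females 102 to 359 CPM, which overlapped. Male over female was 1.41 ± 0.22 on the log2 scale in WT and -0.52 ± 0.23 in CMD (edgeR, adjusted p = 0.00295 and 0.225), and the difference between these, CMD minus WT, was -1.93 ± 0.32 (adjusted p = 0.0314). It was 1 of 6 genes of 14789 that passed this test, with Npnt (-3.23), Akr1b8 (-1.78), Il15 (2.18), Rab3ip (0.84) and Serpinb6a (-1.65), all named here after their values were seen. Over 25 alternatives the Odc1 difference ran from -2.15 to -1.59 and passed in 8 of them. Without library 16 it was -1.59 (adjusted p = 0.122), without WT male 1, 7 or 13 it was -1.82, -2.00 and -2.00 (adjusted p = 0.262, 0.0835 and 0.091), and without libraries 16 and 23 together -1.65 (adjusted p = 0.414). WT males came from B6, 67 and 87, and CMD males from B6, 87 and D2, so strain differs between the sets compared. The fit was chosen after the data were seen.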

How the results depend on the processing

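With 3 libraries per group and both sexes in most groups, the coding of sex mattered more than scaling or filtering: RLE scaling, no filter and unique reads moved none of the counts of members called by over 1.5 times. The CMD change of Amd1 in D2 turned from -1.67 to 0.998 with sex as labelled and to 0.16 with no sex term. With no sex term 1 of the 9 genes passed in B6, 3 in 87 and 1 in D2. With sex as labelled 3754 genes passed in D2, 1555 genes and 2 members for the difference in the CMD effect, 1 member for D2 against B6 in WT and 1 for sex. Among females alone 3548 genes and 2 members passed for the difference in the CMD effect, and 1 member each for WT levels and for D2 against B6. With the compared libraries alone 675 genes and 3 members passed in 87, 772 genes in D2, 2108 genes and 1 member for WT levels, and 2 members for D2 against B6. DESeq2 called 2062 genes for the difference in the CMD effect, 2308 for WT levels, 691 for sex, and 1 member for D2 against B6. Without libraries 16 and 23 together 2168 genes passed in 87 and 941 genes and 0 members in D2, 106 genes for sex, 0 members for sex in CMD and 0 for the sex difference between genotypes. Separate sex terms gave 4 members in D2. For the CMD effects, WT levels and sex over all groups, some member counts here stand without a count of all genes. In those cases the number of all genes called stayed within 1.5 times of the main fit, whose shares are given above. For sex in CMD and the sex difference between genotypes, all genes called were not counted in the alternatives.

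With each library left out in turn, members and genes called ran from 1 to 4 and 1190 to 3981 in B6, 2 to 5 and 1933 to 4269 in 67, 4 to 7 and 2394 to 4032 in 87, and 1 to 3 and 681 to 3381 in D2. They ran from 0 to 1 and 412 to 1198 for the difference in the CMD effect, 0 to 0 and 645 to 1960 for WT levels, 0 to 1 and 648 to 1486 for D2 against B6, and 2 to 2 and 63 to 399 for sex. The lowest gene counts came without library 5 in B6, 9 in 67, 15 in 87, 23 in D2 and 1 for sex. Members called ran from 1 to 3 for sex in WT, 0 to 4 for sex in CMD and 0 to 1 for the difference between these. The cause of these shifts was not tested. Libraries of different groups share no replicate number, so no paired analysis was possible because nothing ties a library of one group to a library of another. Among the 9 members, Lama2, Amd2 and the pathway genes named, Agmat alone rested on under 10 reads in a group. Group reads were not checked for the other genes named.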

Other observations

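Amd1 and its near-identical copy Amd2 ordered the strains differently in WT muscle. The D2 WT females held 140 to 203 CPM of Amd1, below the 287 to 369 CPM of the WT females of the other strains, and 19.1 to 25.9 CPM of Amd2, above the 5.83 to 11.6 CPM of those females. Amd2 levels differed among the 4 strains in WT (edgeR, F test, adjusted p = 0.0415), and D2 against B6 was 1.42 ± 0.46 for Amd2 (adjusted p = 0.0681) where it was -1.09 ± 0.36 for Amd1. In unique exon reads alone, the D2 WT libraries held 291, 324 and 280 reads of Amd2 and 2425, 2646 and 2042 reads of Amd1. B6 WT females 2 and 3 held 66 and 88 unique reads of Amd2 and 3907 and 3571 of Amd1. How D2 sequence variants affect the assignment of reads between the copies was not tested.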
